A study of Drosophila melanogaster with 8 samples.

Results

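The roX RNAs and the protein subunits of the male-specific lethal (MSL) complex are represented by 7 genes, lncRNA:roX1, lncRNA:roX2, msl-1, msl-2, msl-3, mle and mof. They were found by their FlyBase symbols among the 15438 gene rows that each deposited table lists, and all 7 were present in every table. RNA-seq had been run on Drosophila S2 cells, a line that was made from late embryos and resembles hemocytes. In all, 6 libraries came from cells stably transfected with pUWG vectors carrying a neomycin resistance gene, with wild-type Beaf in 3 libraries and mutant Beaf in 3. G418-resistant colonies had been taken after about 10 days of selection, and the labels name neither the mutation nor the number of colonies behind each library. The other 2 libraries were a CTCF knockdown and its control. For depletion the protocol describes 400 µg of double-stranded RNA and an incubation of 5 days, and what the control cells received is not given in the sources used here. All cells grew in Schneider's medium with 10% serum, and the labels list no other allele or agent. Beaf (BEAF-32) and CTCF are insulator proteins that bind DNA.

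The MSL complex carries out dosage compensation in male flies. It gathers on the X chromosome, where the acetyltransferase MOF modifies histone H4 and transcription is raised. MSL1 is the scaffold, MSL2 is the male-specific RING-finger subunit that recognises the X, MSL3 binds methylated chromatin with its chromodomain, and MLE is an RNA helicase that remodels roX RNA so that it can join the complex. The roX1 and roX2 noncoding RNAs are X-linked, differ in length and can replace each other in males. S2 cells are male in this respect and are a standard system for studying the complex. The BDGP6.54 annotation was used for positions and lengths, and the authors may have used another. There roX1, roX2 and mof lie on the X, msl-1 and msl-2 on 2L, msl-3 on 3L and mle on 2R.

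The Beaf libraries carry the number of the deposited file they came from, and each such file pairs 1 wild-type with 1 mutant library. No label states separate cultures for the libraries of 1 genotype, so p-values describe the scatter of these samples alone, and it may be technical. The gene values of a Beaf library added up to 1544063 at least and 2122627 at most, and those of the CTCF control and knockdown to 14217989 and 9267319. Levels are given as CPM, each value divided by its library's sum and multiplied by 1000000. Reads outside annotated features made up 85.6% to 94.0% of the Beaf libraries, 8.05% of the control and 6.93% of the knockdown, so levels in the Beaf and CTCF libraries are set side by side without a test. Each library numbered 1 was unlike the rest of its genotype. Mutant library 1 held values above 0 for 12268 genes, against 9070 to 9874 in the other Beaf libraries. The targeted genes were checked first. BEAF-32 was at 25.0, 469 and 676 CPM in the wild type and at 1228, 1613 and 1929 CPM in the mutant, and the endogenous and the transfected gene can both contribute to it. In wild-type library 1, which is labelled as transfected with wild-type Beaf, the level was below the 58.3 CPM of the CTCF control. CTCF fell from 55.4 CPM in the control to 11.3 CPM in the knockdown, a ratio of 0.205 (95% counting interval 0.165 to 0.252).

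The roX1 RNA was among the most abundant transcripts in 7 libraries and nearly absent from the remaining one. It stood at 2.36, 804 and 867 CPM in wild-type libraries 1 to 3. In mutant libraries 1 to 3 it stood at 385, 2274 and 2298 CPM. The CTCF control held 1028 CPM and the knockdown 1259 CPM. The level in wild-type library 1 rested on 4 recovered reads, with a 95% Poisson interval of 0.633 to 5.95 CPM that covers counting error only. Mutant libraries 2 and 3 were the highest of all 8, and mutant library 1 lay below wild-type libraries 2 and 3, so the ranges of the genotypes overlapped. Per kilobase of annotated exon, roX1 lay above 95.9% to 98.8% of the expressed protein-coding genes of its library in those 7 libraries, and above 1.70% in wild-type library 1. Protein-coding genes with at least 1 CPM counted as expressed, and they numbered 6793 to 10558. In bulk samples fewer cells with an RNA and less of it per cell cannot be told apart.

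**Figure D1:**
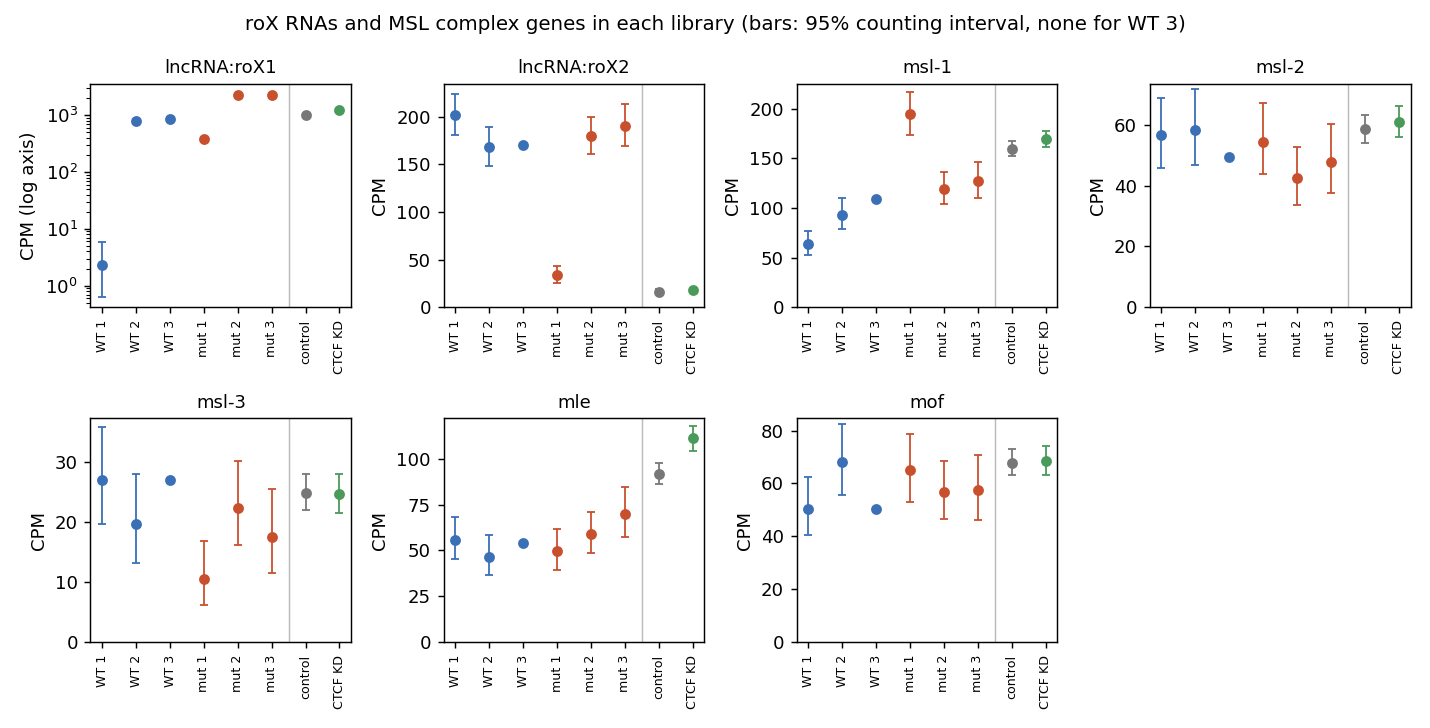
CPM of the 7 genes (vertical axes, logarithmic for lncRNA:roX1) in each of the 8 libraries; WT and mut are the wild-type and mutant Beaf libraries numbered by table, and bars are 95% Poisson counting intervals, which WT 3 lacks because its reads were not recovered. lncRNA:roX1 is at 2.36 CPM in WT 1, lncRNA:roX2 is at 33.4 CPM in mut 1, and the protein genes vary far less.

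The roX2 RNA followed another order. The wild type held 202, 168 and 170 CPM in libraries 1 to 3. Mutant library 1 held 33.4 CPM, and 179 and 190 CPM were found in the other mutant libraries. The 5 Beaf libraries other than mutant library 1 thus lay within a range of 168 to 202 CPM, whatever their roX1 level. In the CTCF control and knockdown roX2 was at 16.0 and 17.6 CPM, lower than in any Beaf library. Per kilobase of exon it lay above 96.1% to 97.0% of expressed protein-coding genes in those 5 Beaf libraries, 87.1% in mutant library 1, and 34.5% and 36.5% in the control and knockdown.

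The balance between the roX RNAs differed from library to library, as the stacked bars of roX level per length show. For this comparison CPM were divided by the length of annotated exon, 5.468 kb for roX1 and 1.368 kb for roX2. In wild-type library 1 roX1 was 0.290% of the summed roX level per length, so that roX2 made up nearly all of it. The roX1 share was 54.5% and 56.0% in wild-type libraries 2 and 3. It was 74.2%, 76.0% and 75.2% in mutant libraries 1 to 3. In the CTCF control and knockdown it was 94.1% and 94.7%. The roX1 to roX2 ratio per length was accordingly 0.00292, 1.20 and 1.27 in wild type and 2.88, 3.17 and 3.03 in the mutant, which gives 0.825 ± 0.713 in wild type (SD, n = 3) and 3.03 ± 0.146 in the mutant (SD, n = 3). The mutant libraries were alike in this ratio even though mutant library 1 held far less of each RNA. The ratio was looked at after the values had been seen and was given no test. Exon lengths are unions over 5 annotated roX1 transcripts and 6 of roX2, and which of them S2 cells made is not known from these tables.

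The sum of roX1 and roX2 per kilobase was lowest in mutant library 1 at 94.8 CPM per kb, followed by wild-type library 1 at 148 CPM per kb. The control and knockdown held 199.6 and 243 CPM per kb, and wild-type libraries 2 and 3 held 270 and 283 CPM per kb. Mutant libraries 2 and 3 reached 547 and 559 CPM per kb. The summed level of the 5 protein genes was far more even, between 69.8 and 90.4 CPM per kb in the Beaf lines, 102 CPM per kb in the control and 109 CPM per kb in the knockdown.

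**Figure D2:**
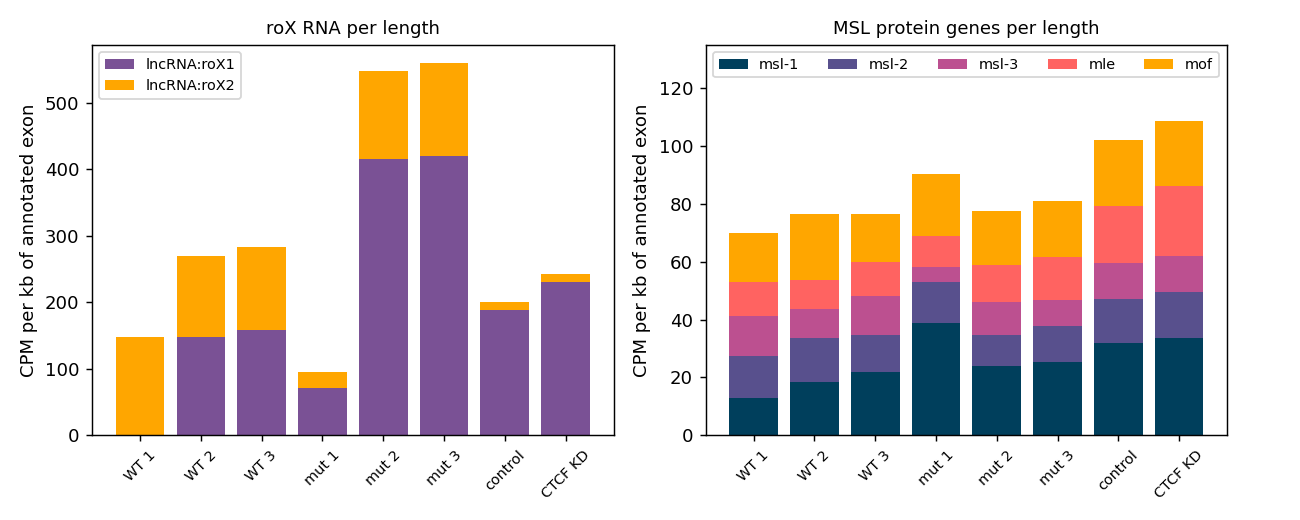
Stacked levels in CPM per kb of annotated exon in each library, with the 2 roX RNAs on the left and the 5 MSL protein genes on the right, each on its own scale. The roX bars run from 94.8 to 559 CPM per kb and change in makeup, while the protein gene bars run from 69.8 to 109 CPM per kb.

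The scaffold gene msl-1 was the protein gene whose genotypes separated. It was at 64.1, 93.1 and 109 CPM in the wild type, in the order of library numbers, at 194, 119 and 127 CPM in the mutant, at 159 CPM in the CTCF control and at 169.5 CPM in the knockdown. All mutant libraries lay above all wild-type libraries, and msl-1 was the 1 of 7 genes for which this held. In the wild type the mean was 88.8 ± 22.8 CPM (SD, n = 3), and in the mutant it was 147 ± 41.3 CPM (SD, n = 3). Such a separation was common here: among 6564 genes tested, 17.5% were higher without overlap in the mutant, and 36.0% were separated in either direction.

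The gene of the male-specific subunit, msl-2, varied little. It was at 56.5, 58.2 and 49.5 CPM in wild-type libraries 1 to 3 and at 54.5, 42.4 and 47.9 CPM in mutant libraries 1 to 3. The highest Beaf library held 1.37 times the lowest, close to the 1.36 times of mof and below the values of the other 5 genes. The control and knockdown, at 58.7 and 60.9 CPM, were slightly above that range. The libraries with the least roX1 or roX2 were not low in msl-2.

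The chromodomain gene msl-3 was at 26.9, 19.6 and 26.9 CPM in the wild type and at 10.5, 22.3 and 17.5 CPM in the mutant, in the same order. In the CTCF control and knockdown it was at 24.8 and 24.6 CPM. Mutant library 1 was the lowest and rested on 17 reads. The helicase gene mle was at 55.6, 46.6 and 53.9 CPM in wild-type libraries 1 to 3, at 49.5, 58.9 and 69.9 CPM in mutant libraries 1 to 3, and at 91.9 and 111 CPM in the control and knockdown. Its genotypes overlapped through mutant library 1. The acetyltransferase gene mof was at 50.4, 68.2 and 50.1 CPM in wild-type libraries 1 to 3 and at 65.0, 56.7 and 57.6 CPM in mutant libraries 1 to 3, with 67.9 and 68.4 CPM in the control and knockdown. The mutant values lay inside the wild-type range.

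Per kilobase of exon, the protein genes of the wild type ranked mof (18.7 ± 3.44 CPM per kb), msl-1 (17.7 ± 4.54), msl-2 (14.2 ± 1.20), msl-3 (12.4 ± 2.15) and mle (11.2 ± 1.03, SD, n = 3 each). Each neighbouring pair in this order differed by less than the larger of its SDs. In the mutant the order was msl-1 (29.2 ± 8.22 CPM per kb), mof (19.8 ± 1.5), mle (12.8 ± 2.2), msl-2 (12.6 ± 1.57) and msl-3 (8.51 ± 3.0, SD, n = 3 each). There mle and msl-2 differed by less than their SDs, and the other neighbours by more. The roX RNAs stood above all protein genes in the means of both genotypes, at 102 ± 88.1 CPM per kb for roX1 and 131.5 ± 13.8 for roX2 in the wild type and at 302 ± 201 and 98.1 ± 63.9 in the mutant (SD, n = 3 each). The SDs of roX1 exceeded its distance from roX2 in the wild type but not in the mutant. Over single libraries, msl-1 exceeded mle and mof exceeded msl-2 and msl-3 in 8 of 8. The spread between the highest and the lowest of the 5 protein genes within a library was 1.40-fold in wild-type library 1, 1.87-fold to 2.85-fold in 6 others and 7.25-fold in mutant library 1, where msl-1 was highest and msl-3 lowest. Those numbered 1 therefore held both extremes of this spread.

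With all 6 Beaf libraries, none of the 7 genes passed the test for a difference between mutant and wild type. The test was limma-trend with Benjamini-Hochberg adjustment over all tested genes at 0.05, and it called 0 of 6564 genes (0.0%), while 1274 (19.4%) had an unadjusted p under 0.05. On the same libraries edgeR called 0 genes and DESeq2 220, of which 219 were higher in the mutant and 1 lower. Without mutant library 1, limma called 471, with 286 higher and 185 lower. Mutant over wild type, roX1 stood at a log2 ratio of 3.29 ± 2.06 (SE, adjusted p = 0.360 by limma) and at 0.67 when wild-type library 1 was left out. For roX2 the log2 ratio was −0.71 ± 0.569 (SE, adjusted p = 0.456 by limma), against 0.01 without mutant library 1. For msl-1 it was 0.78 ± 0.299 (SE, adjusted p = 0.238 by limma) and 0.48 without mutant library 1, and its unadjusted p of 0.0354 was the smallest among the 7 genes. The other log2 fold changes were −0.51 for msl-3, −0.12 for msl-2, 0.24 for mle and 0.16 for mof, with limma adjusted p from 0.304 to 0.713. Over the 7 genes the median log2 fold change was 0.16, against −0.02 over all genes tested.

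Libraries 2 and 3 of each genotype were compared by themselves, because those numbered 1 were unlike the rest. This choice was made with the values known and narrows the spread that p-values measure. In these 4 libraries roX1 rose from 835 ± 44.6 CPM to 2286 ± 17.3 CPM (SD, n = 2 each). The log2 ratio was 1.45 ± 0.0631 (SE, adjusted p = 1.18e-11 by limma), and roX1 had the smallest p of the 6619 genes tested. The next genes in that order, named after their values were seen, were Glt (log2 ratio 1.37) and Hml (1.29), which encodes hemolectin of hemocytes. Of all genes 28.0% had an unadjusted p under 0.05. Limma called 618 genes higher (9.34%) and 357 lower (5.39%) in the mutant, and 1 of the 7 genes was among them. DESeq2 called 166 higher and 14 lower. In these 4 libraries 4 of the 7 genes were higher without overlap in the mutant and 1, msl-2, was lower, where 28.1% and 26.7% of all genes were so and 54.9% in either direction. The roX2 RNA averaged 169 ± 1.94 and 184.5 ± 7.44 CPM (SD, n = 2 each), and the log2 ratio was 0.12 (95% interval −0.06 to 0.30, adjusted p = 0.386 by limma). For msl-1 the log2 ratio was 0.28 (adjusted p = 0.0781 by limma). Its limma adjusted p was 0.0389 without wild-type library 3 and 0.105 to 0.389 without any other library, 0.0453 with the deposited file as a replicate block, and DESeq2 gave 0.773. For mle the log2 ratio was 0.35 (adjusted p = 0.116 by limma). For msl-2 the log2 fold change was −0.25 (95% interval −0.57 to 0.07), for msl-3 it was −0.21 (−0.71 to 0.29), and for mof −0.04 (−0.35 to 0.28), with limma adjusted p of 0.316, 0.627 and 0.911. When each library was left out in turn, the log2 ratio lay between 0.22 and 0.48 for mle, between −0.38 and −0.12 for msl-2, between −0.41 and −0.01 for msl-3 and between −0.27 and 0.20 for mof, and none of these passed the threshold. The 95% intervals of msl-2, msl-3 and mof leave room for falls as large as the rises measured for mle and msl-1. Upward, the msl-2 interval ended below both of those rises, and the intervals of msl-3 and mof ended below that of mle.

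**Figure D3:**
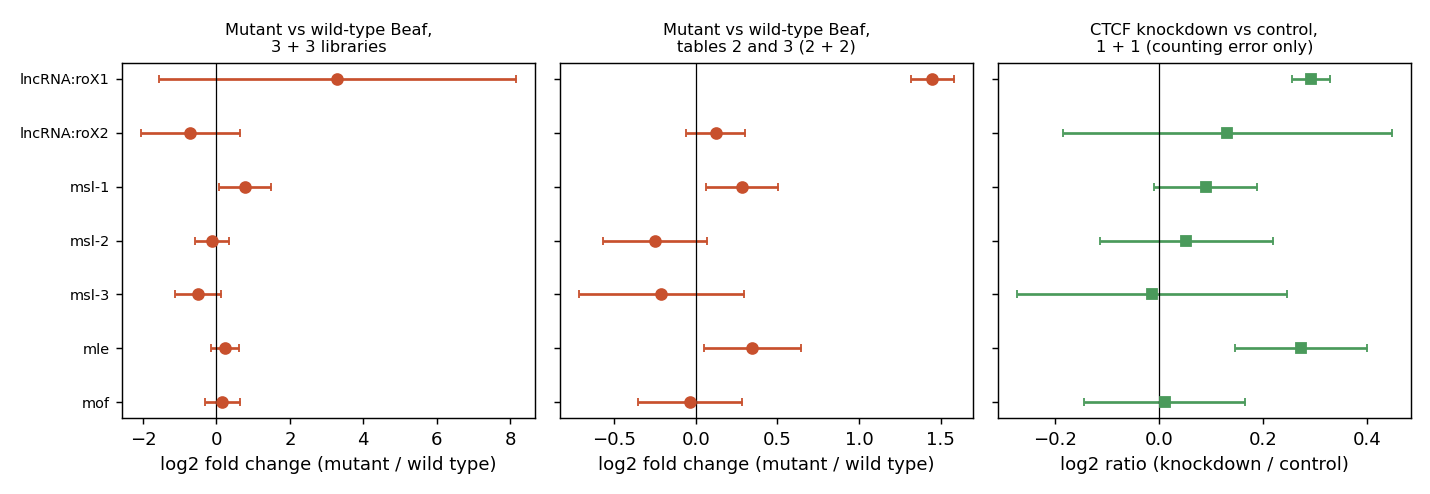
Log2 fold change of each gene (horizontal axes, whose scales differ) with 6 Beaf libraries, with libraries 2 and 3 of each genotype, and for CTCF knockdown over control. Bars are 95% intervals from limma in the first and second panels and counting intervals in the last; lncRNA:roX1 lies at 3.29 with a wide interval, then at 1.45 and at 0.29.

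Library by library, the roX RNAs went opposite ways between the libraries numbered 1. There the mutant library held 166 times the roX1 of the wild-type library by recovered reads (95% counting interval 64.3 to 610). It held 0.166 times the roX2 (95% counting interval 0.122 to 0.221). Of the 7 genes 4 differed by at least 1.5-fold in this pair, where 75.8% of 11544 genes did, 54.0% upward and 21.8% downward in the mutant library. Between the libraries numbered 2 and those numbered 3 the roX1 ratios were 2.83 (2.66 to 3.02) and 2.65, the latter from values whose reads were not recovered and so with no interval. There 1 and 2 of the 7 genes differed by at least 1.5-fold, beside 34.2% and 32.7% of all genes. The members were roX1, higher in both pairs, and msl-3, lower in the last at a ratio of 0.649. Upward differences of that size made up 24.2% and 21.3%, and downward ones 10.0% and 11.4%. The roX2 ratios were 1.07 (0.907 to 1.26) and 1.11. The msl-1 ratio was 3.03 between the libraries numbered 1, then 1.28 and 1.16, so msl-1 and roX1 were the members higher in the mutant in all 3 pairs. The msl-2 ratios of 0.963 (0.716 to 1.30 by recovered reads), 0.729 (0.532 to 0.996) and 0.968 were below 1 in all 3. The first of these intervals included 1, and the last ratio has no interval. How many of all genes kept their direction over the 3 pairs was not counted.

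In the CTCF knockdown the roX RNAs and the MSL genes stayed near the control. With 1 library per group there is no replicate check, and ratios carry counting intervals only. The knockdown to control ratio was 1.22 for roX1 (95% interval 1.19 to 1.26) and 1.21 for mle (1.11 to 1.32). For roX2 it was 1.10 (0.880 to 1.36), for msl-1 1.06 (0.994 to 1.14), for msl-2 1.04 (0.925 to 1.16), for mof 1.01 (0.905 to 1.12) and for msl-3 0.992 (0.828 to 1.19). None of the 7 reached 1.5-fold in either direction, which 7.55% of genes did, with 432 genes (5.59%) at least 1.5-fold higher and 151 (1.96%) at least 1.5-fold lower among 7723 with at least 1 CPM in either library. The log2 ratios of roX1 and mle, 0.29 and 0.27, lay above 83.4% and 82.1% of those genes, whose median was 0.06. Their counting intervals lay above 1.

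The genes beside the members were read for the same libraries, since the counting's strand setting is not given in the sources used here. The annotation places ec, a gene for a ubiquitin protease-like protein, across part of roX1 on the opposite strand, with 392 exonic bases in common. Reads from those bases cannot be assigned with certainty. The ec level was 59.4, 226 and 217 CPM in wild-type libraries 1 to 3, 877, 479 and 438 CPM in mutant libraries 1 to 3, and 786 and 766 CPM in the control and knockdown. Like roX1 it was lowest in wild-type library 1, but unlike roX1 it was highest in mutant library 1. On the other side of roX1, CG2930 ranged only from 126 to 197.5 CPM in the Beaf lines. The neighbours of roX2, CG11695 and nod (a kinesin-like protein of chromosome segregation), were at 8.48 to 24.7 and 9.72 to 17.3 CPM in the Beaf lines, with mutant library 1 highest in both and roX2 lowest there. No annotated gene listed in the tables overlaps roX2. The gene form3, which shares 85 exonic bases with msl-3 on the opposite strand, was at 40.8 CPM in mutant library 1 and at 1.25 to 3.17 CPM in the other Beaf libraries.

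By the root-mean-square difference of centred log2 CPM over the 6 Beaf libraries, the genes nearest to roX1 among 6563 were Glt, CG8861, Alk, Ama and BEAF-32. Glt encodes glutactin, a basement membrane protein, Alk a receptor tyrosine kinase and Ama a secreted immunoglobulin-domain protein. Glt differed from roX1 by 0.66 and BEAF-32 by 1.36 on the log2 scale, where roX1 itself had a root-mean-square spread of 3.19 about its mean. Glt was at 8.01, 640 and 691 CPM in wild-type libraries 1 to 3 and at 512, 1796 and 1659 CPM in mutant libraries 1 to 3. All 5 genes, like roX1, were lowest in wild-type library 1, which follows from their being picked for closeness to roX1 over these libraries. The genes nearest to roX2 were CG31955, Prosbeta1 (a proteasome subunit), moon, SmD2 (a spliceosomal protein) and Mitf (a transcription factor), which differed from it by 0.05 to 0.10, against a spread of 0.82. Picked in the same way for closeness to roX2, all 5 were lowest in mutant library 1. Prosbeta1 was at 6.81 CPM there, against 34.9 to 46.6 CPM in the other Beaf libraries.

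**Figure D4:**
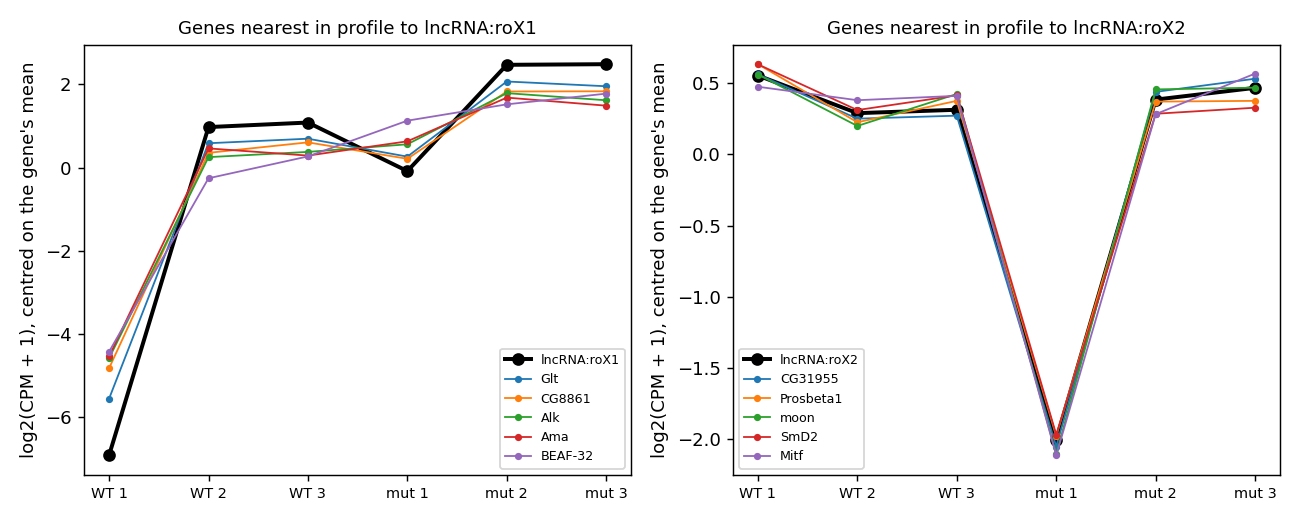
Log2(CPM + 1) of lncRNA:roX1 and lncRNA:roX2 (black) and of the 5 genes nearest to each in profile, centred on each gene's mean, over the 6 Beaf libraries. The roX1 panel is low at WT 1, where roX1 is at 2.36 CPM, and the roX2 panel is low at mut 1, where roX2 is at 33.4 CPM.

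Markers of hemocytes, the cell type S2 cells resemble, moved with roX1 in part, and so did most other listed markers. The summed level of 11 of 11 listed hemocyte markers was 1510 CPM in wild-type library 1, 6090 and 6530 CPM in wild-type libraries 2 and 3, 10020 CPM in mutant library 1, and then 14150 and 13640 CPM in those numbered 2 and 3. The control and knockdown held 33350 and 24940 CPM. Neuronal markers (5 of 5) summed to 61.4 to 78.5 CPM in the other Beaf libraries and to 330.5 CPM in mutant library 1, with the defining neuronal gene elav at 0 in all 8 libraries. Epithelial markers (4 of 4) summed to 75.8, 159 and 154 CPM in wild-type libraries 1 to 3. In mutant libraries 1 to 3 they summed to 538, 289 and 297 CPM. Muscle (3 of 4), gonadal (4 of 6) and fat body (4 of 4) markers reached at most 250, 58.8 and 38.4 CPM in the Beaf lines, each in mutant library 1. Like the hemocyte sum, the epithelial, muscle, gonadal and fat body sums were lowest among the Beaf lines in wild-type library 1. They were also higher in mutant libraries 2 and 3 than in wild-type libraries 2 and 3, so this order was not particular to hemocyte markers. The hemocyte list includes Glt, the gene nearest to roX1 in profile. Gonadal markers summed to 336 and 348 CPM in the control and knockdown. The part of these differences in the roX results was not tested.

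Genes tied to dosage compensation or chromatin, from a mixed list chosen with earlier results known and named partners here, were lower in part. Of 21 entries 16 were found and 15 were tested. With 6 libraries limma called 0 of them, and 2 (Nup98-96 and Hrb27C, both lower) without mutant library 1, when 185 of 6732 genes were called lower, and their median log2 fold change was −0.19, against −0.02 over all genes. The 3 with the largest change there were Nup98-96, a nuclear pore gene, at −0.67, Hrb27C, an RNA-binding protein that acts on msl-2 RNA, at −0.65, and the gene of the heterochromatin protein HP1a at −0.62, with limma adjusted p of 0.238, 0.249 and 0.309. In libraries 2 and 3 limma called 4 lower and 0 higher. Those that fell were egg, a histone methyltransferase gene, with a log2 fold change of −0.45, Nup98-96 (−0.31), Hrb27C (−0.28) and Iswi, a chromatin remodeller gene (−0.28), with limma adjusted p of 0.0382, 0.00429, 0.00468 and 0.0485. The share lower, 4 of 15, stood beside 5.39% of all genes, and the list's median was −0.06. DESeq2 called none of these 4. Nup98-96 and Hrb27C passed whichever library was left out, egg only without wild-type library 3, and Iswi never did. In the CTCF knockdown no partner reached 1.5-fold, and the largest log2 ratio was 0.30, for the HP1a gene.

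MOF also acts in the non-specific lethal (NSL) complex, which works at promoters of many genes. Of 8 entries 7 were tested. In libraries 2 and 3 limma called 1 lower and 0 higher, the WD-repeat gene wds, with a log2 ratio of −0.50 (adjusted p = 0.0252 by limma), beside 5.39% of all genes called lower. It was at 58.9, 60.8 and 59.5 CPM in wild-type libraries 1 to 3 and at 27.2, 39.2 and 45.3 CPM in mutant libraries 1 to 3, with no overlap, as were 18.4% of all genes in that direction and 36.0% in either. The same call was not made by DESeq2, or by limma without wild-type library 2 or without mutant library 2. With 6 libraries limma called 0, and 1 (wds) without mutant library 1, when 185 of 6732 genes were called lower, and wds had the largest log2 fold change at −0.64 (limma adjusted p = 0.214). In the CTCF knockdown all 7 log2 ratios were negative, from −0.137 to −0.044, and none reached 1.5-fold. Their median was −0.08, against 0.06 over all genes. Of all genes 36.0% lay below −0.012, the log2 ratio of msl-3, and the share below 0 was not counted. With 1 library per group these small ratios have no replicate check, and no counting intervals were made for them.

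Sex determination in flies runs through Sxl, which blocks MSL2 in females, while dsx and fru belong to another branch below tra. Of 18 entries 16 were found and 10 tested. In libraries 2 and 3 limma called 3 higher and 0 lower: dsx, the doublesex transcription factor gene, with a log2 ratio of 1.27 (adjusted p = 0.0293 by limma), fru, the fruitless gene, with 0.47 (0.000184), and fl(2)d, a subunit of the RNA methylation machinery that acts in Sxl splicing, with 0.38 (0.0299). The 3 of 10 higher stood beside 9.34% of all genes. The fru gene was at 198, 251 and 271 CPM in wild-type libraries 1 to 3 and at 462, 363 and 361 CPM in mutant libraries 1 to 3. The dsx gene was scarce, at 2.12 to 3.76 CPM in the wild type, at 7.95 CPM in mutant library 2 and at 9.07 CPM in mutant library 3, and was at 60.03 CPM in mutant library 1. DESeq2 did not call fru or fl(2)d and gave dsx no adjusted p. When mutant library 2 or 3 was left out, limma called 1 of the 3, fru. With 6 libraries limma called 0 of the 10, and 1 (fru) without mutant library 1, when 286 genes were called higher and 185 lower of 6732, while DESeq2 called 1, dsx. In the CTCF knockdown dsx was 2.06-fold higher, at 4.32 against 2.11 CPM, and was 1 of 11 tested members past 1.5-fold. Of all 7723 genes 432 (5.59%) were at least 1.5-fold higher, but only 108 of the 6172 with at least 10 CPM in either library. Such ratios were thus more common among scarce genes like dsx, for which no counting interval was made. Sxl was not analysed here.

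X-linked genes, the targets of the complex, were compared with genes of the autosomal arms. In libraries 2 and 3 limma called 100 of 1035 X-linked genes higher (9.66%) and 58 lower (5.6%), close to 435 (8.56%) and 261 (5.14%) of 5079 autosomal genes. The median log2 fold changes were −0.01 and −0.02. With 6 libraries the X-linked median was 0.03 and the autosomal median −0.04, with 0 genes called in either set. In the CTCF knockdown the medians were 0.04 and 0.06, and 54 of 1240 X-linked genes (4.35%) were at least 1.5-fold higher, against 336 of 5939 autosomal genes (5.66%).

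In single libraries, levels per kilobase were compared for 1044 X-linked and 5011 autosomal protein-coding genes with at least 1 CPM in every library. The X-linked median minus the autosomal median was −0.26, −0.29 and −0.29 on the log2 scale in wild-type libraries 1 to 3, −0.04, −0.22 and −0.27 in mutant libraries 1 to 3, and −0.39 and −0.40 in the control and knockdown. Wild-type library 1, with the least roX1, lay close to the other wild-type libraries. Mutant library 1, with the lowest roX level per length, had the smallest gap. That library also differed in its autosomal median, at 3.58 against 3.83 to 3.91 in the other Beaf libraries, while its X-linked median was 3.54 against 3.56 to 3.66. The share of X-linked genes in the summed level of these genes was 15.8% there and 14.4% to 15.0% in the 7 other libraries. Without genes that overlap another, the difference in medians was −0.08 there and between −0.40 and −0.29 in the other Beaf libraries. In that set the X-linked share was 17.9% in mutant library 1, within the 17.9% to 18.7% of the other Beaf libraries, so its higher share was not seen there.

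Chromosome 4, whose genes are bound by the protein POF, showed a larger departure in the same library. For 61 genes the median lay above the autosomal median by 1.06, 0.86 and 0.87 in wild-type libraries 1 to 3, by 0.85 and 0.81 in mutant libraries 2 and 3, and by 0.56 and 0.58 in the control and knockdown. In mutant library 1, which held values for the most genes, the difference was −0.44. What the number of genes above 0 contributed to this was not tested. Among genes tested in libraries 2 and 3, limma called 12 of 67 on this chromosome higher and 5 lower (25.4%), against 14.7% of all genes.

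**Figure D5:**
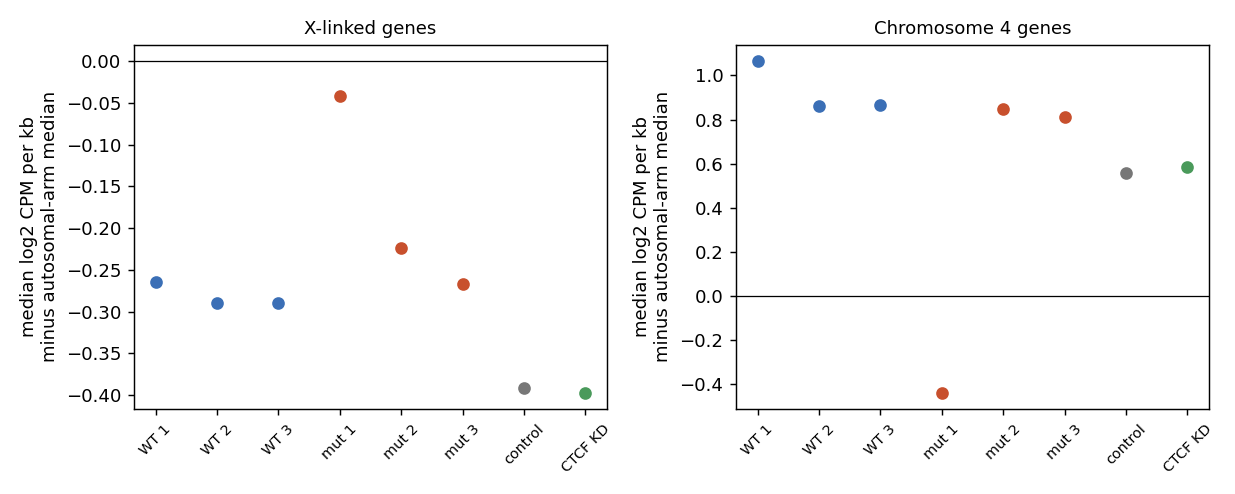
Median log2 CPM per kb of X-linked genes (left) and chromosome 4 genes (right) minus the median of autosomal-arm genes, in each library, for protein-coding genes with at least 1 CPM in every library. The mut 1 point departs in both panels, at −0.04 for the X and −0.44 for chromosome 4.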

How the data were processed

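Per the labels' protocols, total RNA was taken with Trizol, and 2 descriptions of Illumina TruSeq preparation are given. The second states that no poly-A selection was made, and neither is tied to particular libraries. The submitters' processing notes list CASAVA 1.8, BWA and HTSeq. For genome build, annotation and strand setting the entry is: not given in the sources used here. The deposited columns of mutant and knockdown libraries hold read counts per gene. For wild-type and control samples the deposited columns were treated as a signal. In wild-type libraries 1 and 2 and the control the values show counts that were rescaled, by a single factor in each column, and then rounded. Division by 1.234, 1.237 and 1.297 gave whole reads, within 0.5 after rounding, for 99.99%, 100.0% and 99.99% of positive values in these, where chance gives 81.0%, 80.8% and 77.1%. For wild-type library 3 no factor was found, but only factors that scale counts up were searched, so scaling down was not examined. In that library 137 genes shared the value 24 against 87 at 23 and 79 at 25. It was used as deposited, also in edgeR and DESeq2.

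Library sizes and tests used gene rows alone, without the last 5 rows, which count unassigned reads. Because rescaled values are not counts, limma-trend was the main test, on log2 CPM with TMM factors, filterByExpr and a prior count of 2, 2-sided at a Benjamini-Hochberg adjusted p of 0.05. EdgeR, DESeq2, other scalings, filters, prior counts, a table block and leaving out each library were alternatives. The limma test was tried on simulated counts in which no library was unlike the rest of its genotype. That trial therefore cannot show how the test fares with the libraries numbered 1. Ratios between single libraries carry 95% exact conditional binomial intervals and levels exact Poisson intervals, from counts or recovered reads, with none given for wild-type library 3. Of 15438 IDs 14606 (94.6%) matched a symbol in the annotation. Members, lists, comparisons and the naming rule (all members, the targeted genes, called list members or up to 3 with the largest change, 5 nearest profiles, neighbours) were chosen with earlier results of these data known. Recovered-read limma fits and protein-coding restrictions were added after seeing the data. Models were fitted in R 4.3.3 (limma 3.58.1, DESeq2 1.42.0, edgeR 4.0.16), and tables and plots were made in Python 3.11.15 with scipy 1.17.1, numpy 2.4.6, matplotlib 3.10.9 and pandas 2.3.3.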

Additional observations from a re-analysis of the deposited data

How the results depend on the processing

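The rise of roX1 in libraries 2 and 3 passed limma's, edgeR's or DESeq2's threshold in 14 of 14 alternatives, with a log2 fold change of 1.41 to 1.48 and an adjusted p of at most 4.02e-09. With 6 libraries roX1 was called in 0 of 16 alternatives (0.67 to 4.61). For msl-1 in libraries 2 and 3 the log2 ratio lay between 0.18 and 0.38 and the adjusted p from 0.0389 to 0.773, below 0.05 only without wild-type library 3 and under a replicate block by deposited file. That block gave msl-1 an adjusted p of 0.0453 and changed no other member's call. Deviations of wild-type and mutant libraries of the same file from their genotype means correlated at −0.157, −0.119 and −0.084. Those of different files correlated at −0.121 to 0.141. Each mean includes library 1, which was unlike the rest, so these values cannot show whether file numbers pair the libraries. The block left 0 genes called with 6 libraries and gave 1230 against 975 in libraries 2 and 3. The sign of mof in libraries 2 and 3 and of roX2 and msl-2 with 6 libraries changed under 1 alternative each, none past the threshold. DESeq2 called 220 genes with 6 libraries and 180 in libraries 2 and 3. When libraries were left out of the 6, counts ran from 0 to 471, the latter without mutant library 1. In the CTCF comparison 583 genes passed 1.5-fold, 203 passed 2-fold and 144 passed 1.5-fold with at least 10 CPM. With TMM factors the roX1 log2 ratio there was 0.23. For the lists in libraries 2 and 3, DESeq2 called 0 partners, 0 NSL genes and 0 sex determination genes. It gave dsx no adjusted p and called 180 of 6457 genes in all. Without a filter limma called 1 sex determination gene there, beside 845 of 11181 genes. When 1 library was left out of the 6, limma called 0 to 2 partners, 0 to 1 NSL genes and 0 to 1 sex determination genes. Each count was highest without mutant library 1, when 471 of 6732 genes were called. With 6 libraries DESeq2 called 1 sex determination gene, beside 220 of 6463 genes. The X-linked median minus the autosomal one ran from −0.01 to 0.11 with 6 libraries and from −0.01 to 0.03 in libraries 2 and 3. Depth limits low values such as the 4 reads of roX1 in wild-type library 1 and the 17 of msl-3 in mutant library 1. The cause of these shifts was not tested.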
